A study of Mus musculus with 16 samples.

Results

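Mid1, its pseudogene Mid1-ps1, the paralogue Mid2, and the protein phosphatase partners Igbp1 and Ppp2ca were followed in microglia sorted from the olfactory bulb. These 5 genes were picked by symbol out of the 57010 genes of the count table, for their levels in knock-in against wild-type libraries, and all 5 were present. The study sequenced 16 libraries from mice aged 2 months, in 4 groups of 4 (WT female, WT male, KI female and KI male). WT animals were purchased C57BL/6J mice. KI animals carried the APP-NL-G-F alleles, in which the amyloid-beta part of App is humanised and bears changes called Swedish (NL), Arctic (G) and Iberian (F), raising pathogenic amyloid-beta, and were kept on the same C57BL/6J background. Knock-in genotype and the separate source of the animals cannot be told apart here. Microglia were enriched with magnetic CD11b beads.

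MID1 is a ubiquitin ligase of the TRIM family that sits on microtubules, and loss of its human counterpart causes Opitz syndrome, a disorder of midline development. Through its B-box domains it binds IGBP1 (also called alpha4), which in turn holds the catalytic subunit of protein phosphatase 2A (PP2A), encoded by Ppp2ca, and the ligase marks that subunit for breakdown. MID2 is the closest relative of MID1 and also binds IGBP1 on microtubules. In laboratory mice Mid1 straddles the edge of the pseudoautosomal region, the stretch that X and Y share and exchange at meiosis, so that its first exons are found on X alone and its last exons have a counterpart on Y.

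In the GRCm39 build, Mid1 (ENSMUSG00000035299) lay on the plus strand at chrX:168468195-168773794 with 10 exons in its reference transcript and 2040 bases of coding sequence. Mid1-ps1 (ENSMUSG00000095134), classed as an unprocessed pseudogene, lay at chrY:90764326-90774754 on the plus strand, with 7 exons of 1248 bases in all. Mid2 (ENSMUSG00000000266) lay at chrX:139565329-139668464, Igbp1 (ENSMUSG00000031221) at chrX:99537897-99560035 and Ppp2ca (ENSMUSG00000020349) at chr11:51989508-52018605, each on the plus strand. Thus 3 of the 5 members were X-linked and 1 was annotated on Y.

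The 7 pseudogene exons corresponded one by one to exons 4 to 10 of Mid1. Over 1248 aligned bases without gaps, 5 differed, an identity of 99.6%. The 3 exon pairs that held these differences are printed, and capitals mark the differing bases. Within the aligned stretches, a read can be assigned to Mid1 or to its pseudogene only where the letters differ.
Mid1 exon 6, chrX:168766952-168767079, plus strand: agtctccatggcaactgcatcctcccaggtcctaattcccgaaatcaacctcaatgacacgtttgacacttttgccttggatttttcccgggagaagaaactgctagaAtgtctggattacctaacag
Mid1-ps1 exon 3, chrY:90769811-90769938, plus strand: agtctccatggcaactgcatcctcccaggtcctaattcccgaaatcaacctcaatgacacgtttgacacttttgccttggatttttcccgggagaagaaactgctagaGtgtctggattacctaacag
Mid1 exon 7, chrX:168767995-168768138, plus strand: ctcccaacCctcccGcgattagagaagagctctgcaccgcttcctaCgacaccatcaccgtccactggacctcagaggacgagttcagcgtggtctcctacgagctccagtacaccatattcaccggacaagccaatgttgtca
Mid1-ps1 exon 4, chrY:90770791-90770934, plus strand: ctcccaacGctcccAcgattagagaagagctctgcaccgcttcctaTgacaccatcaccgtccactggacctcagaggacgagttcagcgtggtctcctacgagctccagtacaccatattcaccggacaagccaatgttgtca
Mid1 exon 8, last 162 of its 201 bases, chrX:168768932-168769093, plus strand: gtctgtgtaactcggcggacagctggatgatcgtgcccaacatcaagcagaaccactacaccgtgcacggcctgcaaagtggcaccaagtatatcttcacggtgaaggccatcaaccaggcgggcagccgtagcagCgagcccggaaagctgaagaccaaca
Mid1-ps1 exon 5, chrY:90771722-90771883, plus strand: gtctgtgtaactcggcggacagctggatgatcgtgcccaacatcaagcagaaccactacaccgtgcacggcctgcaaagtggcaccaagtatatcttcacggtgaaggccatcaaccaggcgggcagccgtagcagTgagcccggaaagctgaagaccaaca

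Counted from 1 at the first base of each printed stretch, with the Mid1 base first, the differences were A109G in Mid1 exon 6, C9G, G15A and C47T in exon 7, and C137T in exon 8. All of the printed Mid1 stretches lay in its coding sequence. In the remaining 4 exon pairs the aligned stretches were identical letter for letter, the last pseudogene exon aligning to the first 349 of the 1936 bases of Mid1 exon 10.

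Read placement was modelled by sliding a window of 75 bases, standing for a single read without its mate, along each spliced transcript and asking whether it occurred at any other place on X or Y. Of 3900 windows of the Mid1 reference transcript, 1390 (35.64%) were found nowhere else. Every window starting in exons 1 to 3 was unique, and none starting in exons 4, 5, 9 or 10 was. Of 1174 windows of Mid1-ps1, 75 (6.39%) occurred neither elsewhere on X or Y nor in any of the 17 annotated Mid1 transcripts, and all 75 covered the single difference in its exon 5 (C137T). The differences in pseudogene exons 3 and 4 made no window unique, since these exons have a match in Gm21742, a second partial copy at chrY:90848682-90855309. Gm21742 collected 5 counts over all 16 libraries. STAR's own gene counting keeps only read pairs placed at a single site, so most of the shared exons could contribute little to either gene, and the count of each gene is uncertain to the extent that such reads were dropped or split.

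**Figure D1:**
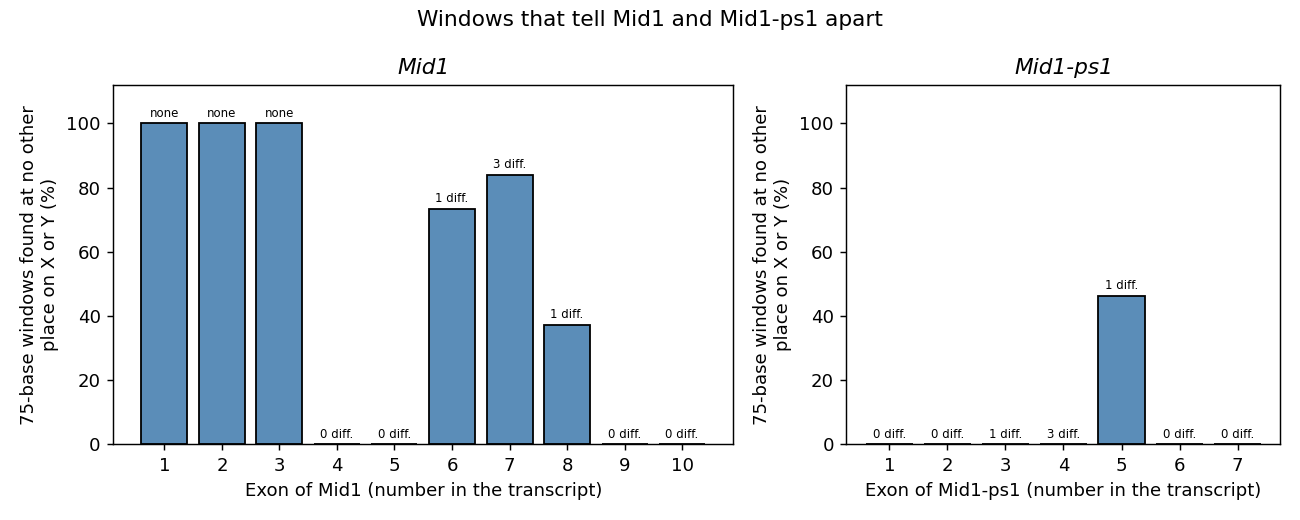
Percentage of 75-base windows, by the exon in which they start, that occur at no other place on X or Y, for the Mid1 transcript (left, exons 1 to 10) and for Mid1-ps1 (right, exons 1 to 7). The number above a bar counts base differences between the paired exons and "none" marks Mid1 exons with no pseudogene counterpart; unique windows fill exons 1 to 3 of Mid1, and in Mid1-ps1 only exon 5 has any (46.3% of its windows).

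The libraries held 9052932 to 18117286 counts, and 18227 genes, those reaching 5 counts in 8 or more libraries, were tested. The level of 3 counts, taken as the floor of detection, was 0.166 to 0.331 CPM (reads per 1e+06 counted, scaled by TMM factors) depending on the library. All 8 female libraries were high for Xist and all 8 male libraries for the 4 Y genes Ddx3y, Kdm5d, Eif2s3y and Uty, matching their labels. The 10 microglia markers summed to 18870-22530 CPM in WT and 18870-21990 CPM in KI. Intervals on counts and shares cover counting error only.

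The 5 members spanned a wide range of levels. Per kilobase of exon, Ppp2ca stood highest at 20.5 CPM in WT and 19.4 in KI, followed by Igbp1 at 14.6 and 13.6. Mid1 came next at 1.54 CPM per kilobase in WT and 5.22 in KI, then Mid2 at 0.321 and 0.358. The counts assigned to Mid1-ps1, whose origin was not tested, were lowest in WT at 0.0599 CPM per kilobase. In KI, at 0.846, they passed those of Mid2. The exonic lengths are those of all exons of each gene, and for Mid1 and Mid1-ps1 they include sequence in which few reads can be placed at 1 site.

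Mid1, the ligase itself, was higher in every KI library than in any WT library. In WT it measured 11.6, 17.4, 15.0 and 15.4 CPM in females 1 to 4 and 10.4, 5.17, 9.62 and 4.77 CPM in males 1 to 4. In KI it measured 30.9, 41.2, 31.2 and 39.7 CPM in females and 29.6, 39.9, 43.1 and 47.99 CPM in males. The genotypes did not overlap: the highest WT library was a female at 17.4 CPM and the lowest KI library a male at 29.6 CPM. Means were 11.2 ± 4.66 CPM in WT and 37.95 ± 6.65 CPM in KI (SD, n = 8 each), a ratio of 3.40. The counts behind the lowest levels were not small, with 47 to 210 reads per WT library and 348 to 684 per KI library.

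Counts assigned to Mid1-ps1, the Y-annotated pseudogene, were near 0 in WT and low but countable in KI. WT females held 0, 0, 0 and 2 counts and WT males 0, 2, 1 and 2 counts. KI females held 15, 14, 10 and 13 counts and KI males 11, 9, 22 and 15 counts. No WT library reached 3 counts, and no KI library fell under 9. Pooled over 8 libraries each there were 109 counts in KI against 7 in WT, a ratio scaled to the pooled depth of 14.9 with a 95% counting interval of 6.97-37.8. Within females the pooled counts were 52 against 2 (ratio 24.6, 6.46-208) and within males 57 against 5 (ratio 11, 4.45-35.2). The gene entered the tested set through its KI libraries alone, exactly 8 of which passed 5 counts, so among tested genes it had to differ. The intervals pool the libraries, leave out the spread between them, and are no test of the genotype difference.

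**Figure D2:**
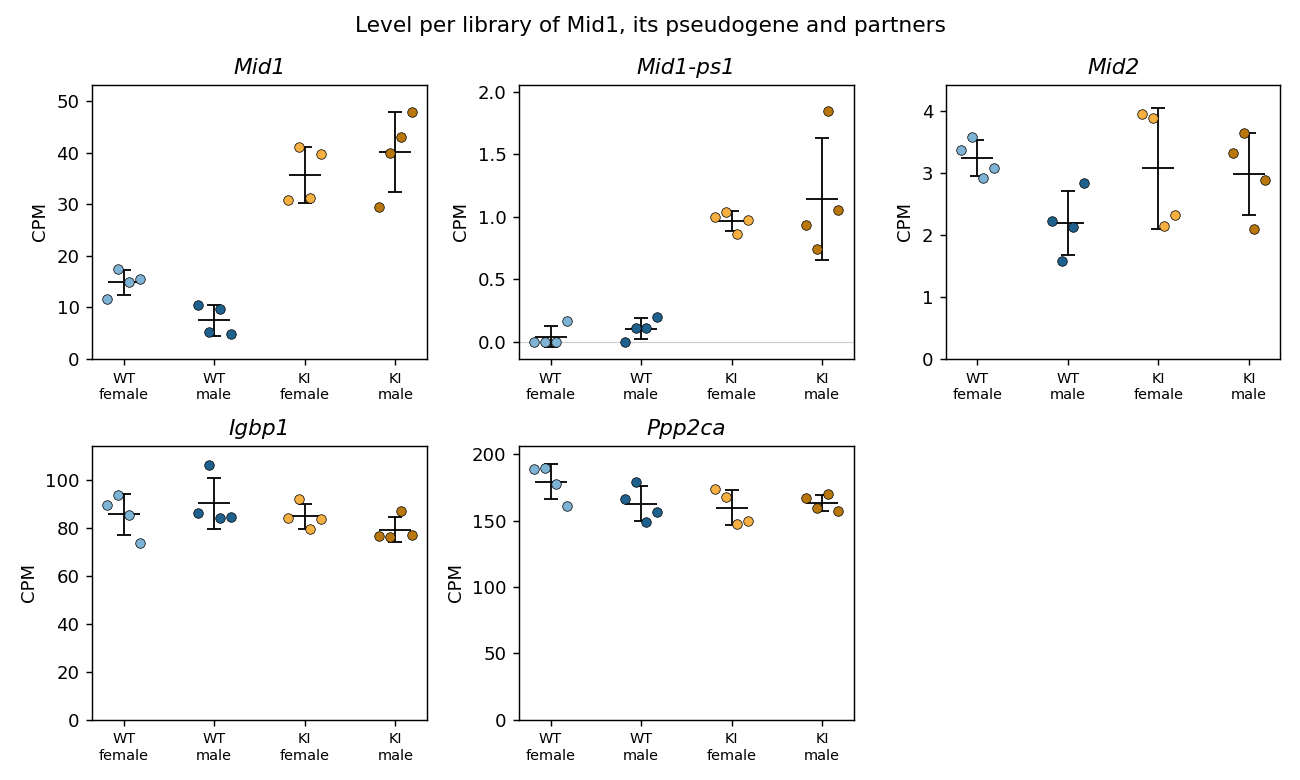
CPM in each of the 16 libraries for the 5 members, 1 panel per gene with its own axis, in WT female, WT male, KI female and KI male groups of 4. Points are libraries, and bars give the group mean ± SD. Mid1 lies at 4.77-17.4 CPM in WT and 29.6-47.99 CPM in KI, Mid1-ps1 shows the same separation near the floor, and the genotypes overlap for Mid2, Igbp1 and Ppp2ca.

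The partners overlapped between genotypes. Mid2, the paralogue, measured 3.37, 3.58, 2.92 and 3.07 CPM in WT females and 2.22, 1.57, 2.13 and 2.84 CPM in WT males. In KI it measured 3.94, 3.88, 2.149 and 2.32 CPM in females and 3.31, 3.63, 2.10 and 2.88 CPM in males. The KI range of 2.10-3.94 CPM lay across the upper part of the WT range of 1.57-3.58 CPM, with means of 3.03 ± 0.772 and 2.71 ± 0.682 CPM. Mid2 was counted by 19 to 59 reads per library, and shared 70.01% of 1997 aligned coding bases with Mid1 and no 75-base window, so reads of one cannot be taken for the other.

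Igbp1, the adaptor between the ligase and the phosphatase, measured 89.4, 93.5, 85.5 and 73.8 CPM in WT females and 86.2, 106.1, 84.0 and 84.5 CPM in WT males. KI females gave 84.1, 92.1, 79.6 and 83.5 CPM and KI males 76.6, 76.2, 87.1 and 76.8 CPM. The lowest library of all was a WT female and the highest a WT male, and the KI values lay between them. The means were 87.9 ± 9.26 CPM in WT and 82.0 ± 5.73 CPM in KI.

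Ppp2ca, the catalytic subunit itself, measured 188.6, 189.5, 178.0 and 161.1 CPM in WT females and 166.0, 179.4, 149.2 and 156.3 CPM in WT males. KI females gave 174.2, 168.2, 147.4 and 149.5 CPM and KI males 167.4, 159.7, 169.9 and 157.5 CPM. Again the ranges overlapped over most of their length, with means of 171.0 ± 15.1 CPM in WT and 161.7 ± 9.80 CPM in KI. These are transcript levels, and the breakdown of the phosphatase by the ligase acts on protein, which was not measured.

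In the fit over all tested genes with sex as a term (edgeR quasi-likelihood), the log2 fold changes of KI against WT were 1.82 (SE 0.199) for Mid1, 3.72 (0.429) for Mid1-ps1, 0.19 (0.179) for Mid2, -0.10 (0.0622) for Igbp1 and -0.08 (0.0534) for Ppp2ca. Since the members were chosen with this contrast known, the values are given as a description and no test of them is reported. The fitted value of Mid1-ps1 depends on how its counts near 0 are smoothed and is no bound. By the call rule of the study (a false discovery rate, FDR, below 0.1 and a change above 0.5 on the log2 scale) 2 of the 5 were called, both higher, where 4.33% of all tested genes were called higher and 4.3% lower. The choice of members fixed that count, and nothing is read from it. Non-overlap of the 8 KI and 8 WT libraries with KI higher was seen in 0.137% of tested genes. With the counts of Mid1 and Mid1-ps1 added into 1 row, the log2 fold change was 1.85.

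By the sign of their log2 fold changes, markers of other cells leaned upwards with genotype in some lists and downwards in others. With the sexes pooled, the summed levels of each list given here overlapped between genotypes. Within females the neuron sums (450.1-491.1 CPM in WT, 582.3-690.9 in KI) and neuroblast sums (60.5-66.95 and 76.0-85.0) did not overlap. Within males the oligodendrocyte sums (230.7-270.2 and 308.5-407.9) and endothelial sums (62.1-70.7 and 72.4-92.3) did not overlap. KI was higher in each case, and the other sums overlapped within each sex. Of all tested genes, 8.64% were called with genotype. The 12 neuron markers summed to 399.8-558.1 CPM in WT and 498.8-733.3 CPM in KI, 9 of 12 had a log2 fold change above 0 and none was called. Of these 12, 5 had an FDR below 0.1 with a change under the size limit of the rule. Of all tested genes, 14.8% had an FDR below 0.1 at any size. The neuron markers of smallest p (edgeR) were Gad2 at 0.38 (FDR 0.00417), Snap25 at 0.38 (FDR 0.00512) and Syt1 at 0.43 (FDR 0.00796). The 6 neuroblast markers summed to 51.9-71.4 CPM in WT and 58.95-94.3 CPM in KI, and 2 of them rose, the migrating-neuroblast genes Dcx by 0.72 (FDR 0.00635) and Igfbpl1 by 0.79 (FDR 0.0666). Oligodendrocyte markers summed to 230.7-427.0 CPM in WT and 281.9-412.4 CPM in KI, with 6 of 6 above 0. Of these, 3 had an FDR below 0.1 and 1 was called higher, Mog at 0.77 (FDR 0.0335). The 7 astrocyte markers summed to 571.8-1166 CPM in WT and 479.7-784.0 CPM in KI, with 1 of 7 above 0 and none called, Gfap standing at -0.43 (FDR 0.0651, under the size limit). The 6 endothelial markers summed to 62.1-160.6 CPM in WT and 72.4-92.3 CPM in KI, with 0 of 6 above 0 and none called. The median endothelial sum was 76.9 CPM in WT and 80.3 CPM in KI, and the median astrocyte sum 648.2 and 643.4 CPM. Within females, where 7.15% of all tested genes were called, 3 of 7 astrocyte markers fell in KI, among them Aldoc by 0.64 (FDR 0.0501), and 4 of 6 endothelial markers fell, among them Cldn5 by 0.95 (FDR 0.0287). In the same contrast 2 of 12 neuron markers and 1 of 6 neuroblast markers were called higher, and 0 of 6 oligodendrocyte markers were called. Among males the endothelial sums were instead higher in KI, as given above. No marker of these lists was at 0 in all libraries. With the mean neuron marker level as a covariate, the log2 fold change of Mid1 was 2.03. The part of the other cells in the values of Mid1 was otherwise not tested, and in such bulk libraries fewer cells of a type and less RNA per cell cannot be told apart.

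The second axis of the design, sex, took no part in choosing the members, and it can be tested. Over both genotypes no member differed between females and males by the call rule, against 0.0604% of all tested genes. The female-minus-male log2 differences were 0.32 for Mid1 (SE 0.195, FDR 0.798), 0.30 for Mid2 (SE 0.179, FDR 0.785), 0.01 for Igbp1 (FDR 0.986), 0.05 for Ppp2ca (FDR 0.864) and -0.34 for Mid1-ps1 (FDR 0.865). An exact permutation test that exchanged the sexes within each genotype (4900 splits, two-sided, unadjusted over the 5 members) gave p = 0.0943 for Mid1 and p = 0.123 for Mid2. Igbp1, also X-linked, averaged 85.6 CPM in WT females and 90.2 CPM in WT males.

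The sex difference of Mid1 was seen in WT mice. WT females (14.9 ± 2.44 CPM, SD, n = 4) and WT males (7.50 ± 2.95 CPM, n = 4) did not overlap, the lowest female standing at 11.6 CPM and the highest male at 10.4 CPM, a ratio of 1.98. Such a separation with females higher was seen in 4.21% of tested genes. The log2 difference was 0.996 (SE 0.226), which was called in the fit over all genes (edgeR, FDR 0.0608), where 0.938% of tested genes were called. An exact permutation test gave p = 0.0286, the smallest that 70 splits allow. In KI mice the order was the other way and within the spread, at 35.8 ± 5.45 CPM in females and 40.1 ± 7.80 CPM in males, with a log2 difference of -0.17 (SE 0.190, FDR 1, against 0.0549% of tested genes called; exact permutation p = 0.457). These contrasts within each genotype were chosen after the values had been seen. The call in WT rested on single libraries: it was lost without WT female 1 (FDR 0.119), WT female 2 (FDR 0.235), WT male 2 (FDR 0.212) or WT male 4 (FDR 0.166), with log2 differences of 1.10, 0.91, 0.81 and 0.84. It held without each of the other 12 libraries, among them all KI libraries, whose levels are not compared in this contrast.

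Markers of other cells also moved with sex in WT, where 0.938% of all tested genes were called. The number of genes called in this contrast was 171, and 13 without WT male 2. Endothelial markers summed to 83.0-160.6 CPM in WT females and 62.1-70.7 CPM in WT males, and 4 of 6 rose in WT females, namely Cldn5 by 1.51 (FDR 0.0123), a tight junction protein, Flt1 by 1.501 (FDR 0.0210), a VEGF receptor, Ly6c1 by 2.20 (FDR 0.0251) and Cdh5 by 0.84 (FDR 0.0630), the cadherin of endothelial junctions. Astrocyte markers summed to 607.9-1166 CPM in WT females and 571.8-657.7 CPM in WT males, with all 7 above 0 and none called. In KI the endothelial sums were alike, at 73.7-91.8 CPM in females and 72.4-92.3 CPM in males. The part of these cells in the WT sex difference of Mid1 was not tested.

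Put as a genotype difference within each sex, Mid1 was 2.41-fold higher in KI females than in WT females and 5.35-fold higher in KI males than in WT males, with log2 fold changes of 1.28 (SE 0.202) and 2.44 (SE 0.218). The difference between these values, the interaction of genotype and sex, was -1.16 (SE 0.295). It did not pass the call rule (edgeR, unadjusted p = 0.000979, FDR 0.256), which 5 genes passed (0.0274% of tested genes). DESeq2 gave -1.16 with an FDR of 0.0411, so the call depended on the tool. With any 1 of the 16 libraries left out, edgeR did not call it (FDR 0.166-0.634). For Mid2 the interaction was -0.53 (FDR 0.949), for Igbp1 0.18 (FDR 0.951), for Ppp2ca -0.17 (FDR 0.910) and for Mid1-ps1 0.96 (SE 1.03, FDR 0.987).

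Mid2 also separated by sex among the WT libraries. WT females at 2.92-3.58 CPM and WT males at 1.57-2.84 CPM did not overlap (exact permutation p = 0.0286, again the smallest possible). Such a separation with females higher was seen in 4.21% of tested genes, and the contrast was chosen after the values had been seen. The log2 difference of 0.58 (SE 0.250) was not called (edgeR, FDR 0.397). In KI the Mid2 difference was 0.05 (FDR 1). For comparison, the 5 X-linked genes known to escape inactivation in mice (Kdm6a, Kdm5c, Eif2s3x, Ddx3x and Pbdc1) all had female-minus-male differences above 0 over both genotypes, from 0.29 to 0.67, and 2 were called: Kdm6a, a histone demethylase, at 0.67 (FDR 2.11e-07) and Eif2s3x, a translation initiation factor, at 0.58 (FDR 8.5e-06). Kdm5c, another demethylase, reached an FDR of 6.43e-07 at 0.43, under the size limit of the rule.

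Mid1-ps1 did not follow the other genes annotated on Y. In the 4 KI female libraries it had 10 to 15 counts, while Ddx3y, Kdm5d, Eif2s3y and Uty together had 0 to 2 counts per library. In the 4 WT male libraries, which held 1780 to 3463 counts of those 4 Y genes, Mid1-ps1 had 0 to 2 counts. The KI males held 2216 to 2690 counts of the Y genes and 9 to 22 of Mid1-ps1. Counts assigned to the pseudogene thus appeared in female libraries with almost no counts of other Y genes. They stayed at 2 or fewer in WT male libraries that had many. The origin of these reads was not tested, so the row is not taken as the level of the Y copy. Its female-minus-male difference within KI was -0.23 (FDR 1).

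**Figure D3:**
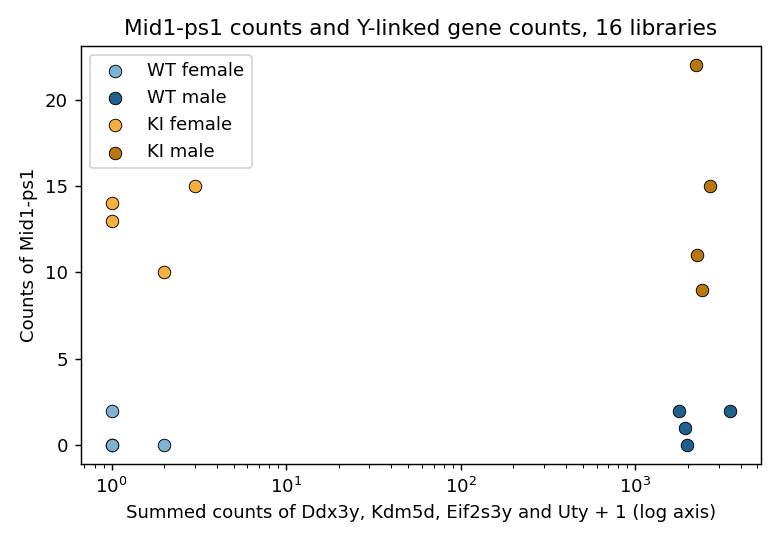
Counts of Mid1-ps1 (vertical axis) against the summed counts of Ddx3y, Kdm5d, Eif2s3y and Uty plus 1 (horizontal, log axis) in 16 libraries, 1 point each, coloured by group. Female libraries sit at the left edge and male libraries at the right, and on both sides the KI libraries (9 to 22 counts) lie above the WT libraries (0 to 2 counts); 2 WT females with 0 counts of either share 1 point.

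As a share of the counts of the pair, Mid1-ps1 made up 0.648% in WT (7 of 1081, exact Clopper-Pearson 95% interval 0.261-1.33%) and 2.69% in KI (109 of 4048, 2.22-3.24%). KI females (2.65%, 1.99-3.46%) and KI males (2.73%, 2.08-3.53%) had like shares. WT females were at 0.274% (0.0332-0.988%) and WT males at 1.42% (0.463-3.28%), the male interval overlapping those of the KI groups. The WT shares rest on 7 counts, of which 2 came from WT female 4. As above, the intervals leave out the spread between libraries and are no test of genotype.

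A gene annotated opposite to Mid1 carried more counts than Mid1 itself. The gene is G530011O06Rik, a long noncoding RNA. The later annotation splits it into an X form inside the Mid1 span on the minus strand (G530011O06Rikx, chrX:168758039-168762286) and a Y form, and which of them its row in the table counts is not given in the sources used here, so reads of both forms may enter the values. It measured 42.4, 61.8, 42.0 and 37.5 CPM in WT females and 30.5, 12.2, 26.4 and 16.6 CPM in WT males. In KI it measured 57.4, 100.7, 68.2 and 94.5 CPM in females and 67.4, 91.4, 110.9 and 132.2 CPM in males. WT males had the lowest mean and KI males the highest, and among females the genotypes overlapped (WT up to 61.8 CPM, KI from 57.4 CPM). It rose with genotype by 1.501 on the log2 scale (edgeR, FDR 0.00112) and by 1.11 in WT females against WT males (FDR 0.0731). Each library held 1.86 to 3.67 counts of it per count of Mid1.

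Gm15726, a second noncoding RNA on the minus strand (chrX:168762043-168768228), averaged 5.02 CPM in WT and 6.91 CPM in KI. It was 6.98 ± 1.35 CPM in WT females and 3.05 ± 1.14 CPM in WT males, which did not overlap, against 5.57 ± 1.85 and 8.25 ± 3.37 CPM in KI females and males, which did (SD, n = 4). Separation of the WT sexes with females higher was seen in 4.21% of tested genes. The log2 fold change of Gm15726 with genotype was 0.52 (FDR 0.315), at -0.32 in females and 1.46 in males. The interaction of -1.78 did not pass (FDR 0.256). The kit marks strand, but the strand column taken for the table is not given in the sources used here, so reads of Mid1 and of these antisense genes are kept apart only if the matching column was used.

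**Figure D4:**
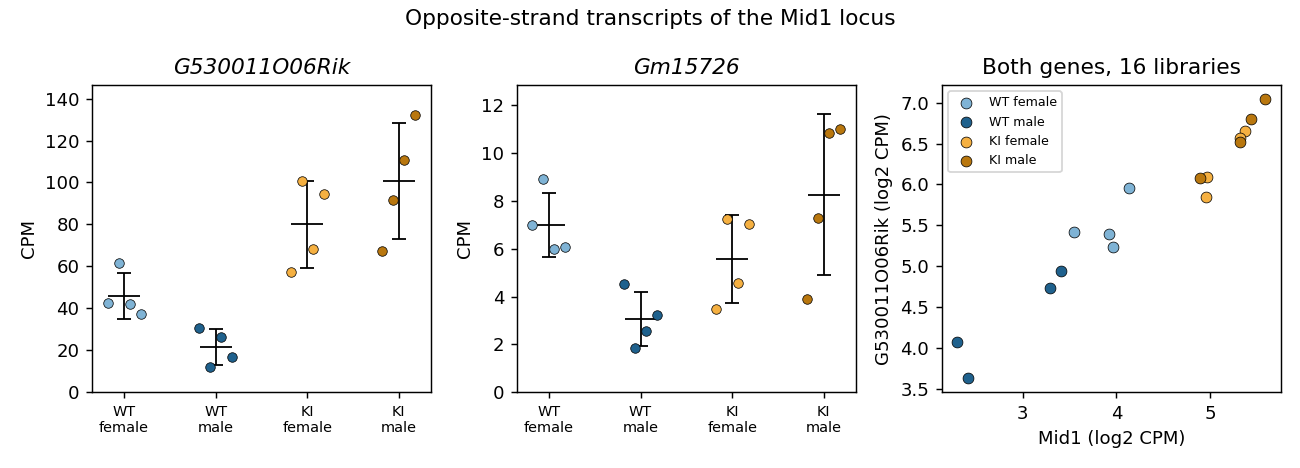
CPM of the minus-strand genes G530011O06Rik (left) and Gm15726 (middle) in 4 groups of 4 libraries, points being libraries and bars the mean ± SD, and log2 CPM of G530011O06Rik against Mid1 (right). WT males have the lowest mean of both genes, and in the right panel both levels are lowest in 2 WT males and highest in a KI male.

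Of 26 annotated genes within 1 Mb of Mid1, 14 were matched to the table by symbol, which leaves out G530011O06Rik because its symbol changed between annotations. Of these 14, 4 were tested, Gm15726 among them, and none of the 4 was called with genotype, where 8.64% of all tested genes were. Their median log2 fold change was 0.27. Hccs, which attaches haem to cytochrome c, averaged 19.0 ± 2.19 CPM (WT) and 18.5 ± 1.46 CPM (KI; SD, n = 8; log2 fold change -0.04, FDR 0.804). Arhgap6 was at 1.14 and 1.41 CPM (0.33, FDR 0.331). In a broader list of 14 genes of the distal X, 8 were tested and none was called, among them Frmpd4 (0.40, FDR 0.0932, under the size limit) and the RNA sensor Tlr7 (-0.14, FDR 0.313). With 8.64% called over all tested genes, the lack of a call in lists this short says little about the locus. Over all tested genes the median was -0.001.

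Of the TRIM relatives of Mid1, 9 genes of the same domain class (class C-I), 8 were tested, and of the 7 besides Mid1 none was called, where 8.64% of all tested genes were. The list median, Mid1 included, was 0.28. Trim9, a brain ligase and the most abundant relative at 75.95 CPM in WT and 98.7 CPM in KI, had a log2 fold change of 0.38 (FDR 0.135). Trim46, which bundles microtubules at the start of the axon, was at 0.45 (FDR 0.117), Trim36 at -0.16 (FDR 0.124) and Fsd1l at 0.52 (FDR 0.165). Trim46 passed the rule without WT female 4, WT male 1, WT male 4 or KI male 3, and Fsd1l without KI male 3.

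No gene of the phosphatase that the ligase acts on passed the call rule with genotype. Of 32 PP2A genes listed, 31 were in the table and 30 were tested, and 0 were called, where 8.64% of all tested genes were. Their median log2 fold change was -0.01, with 11 of 30 above 0 and a range from -0.28 to 0.43. Of the core, the scaffold Ppp2r1a was at 0.03 (FDR 0.784) and the second catalytic subunit Ppp2cb at -0.02 (FDR 0.880).

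Among the regulatory subunits, which steer PP2A to its substrates, 4 of 15 had an FDR below 0.1 with a change under the size limit, where 14.8% of all tested genes had an FDR below 0.1 at any size. Ppp2r2c was at 0.34 (17.6 CPM in WT and 22.1 CPM in KI, FDR 0.0255), Ppp2r2b at 0.43 (FDR 0.0468) and Ppp2r2d at -0.16 (FDR 0.0639). Ppp2r2b and Ppp2r2c are B subunits known mainly from brain neurons. The neuron marker sums given above were also higher in KI, and their part in the values of these genes was not tested. Ppp2r2b passed the rule without WT female 4 or KI male 3. The genes of PP2A assembly and its inhibitors stayed within 0.28 of no change: the activator Ptpa was at 0.05 (FDR 0.539), the methyltransferase Lcmt1 at 0.08 (FDR 0.557), and the inhibitors Set at -0.09 (FDR 0.377), Anp32a at -0.06 (FDR 0.515) and Cip2a at -0.28 (FDR 0.508). Of the sister phosphatases that IGBP1 also binds, Ppp4c was at -0.22 (56.6 CPM in WT and 48.7 CPM in KI, FDR 0.00733, under the size limit) and Ppp6c at -0.00496 (FDR 0.979).

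**Figure D5:**
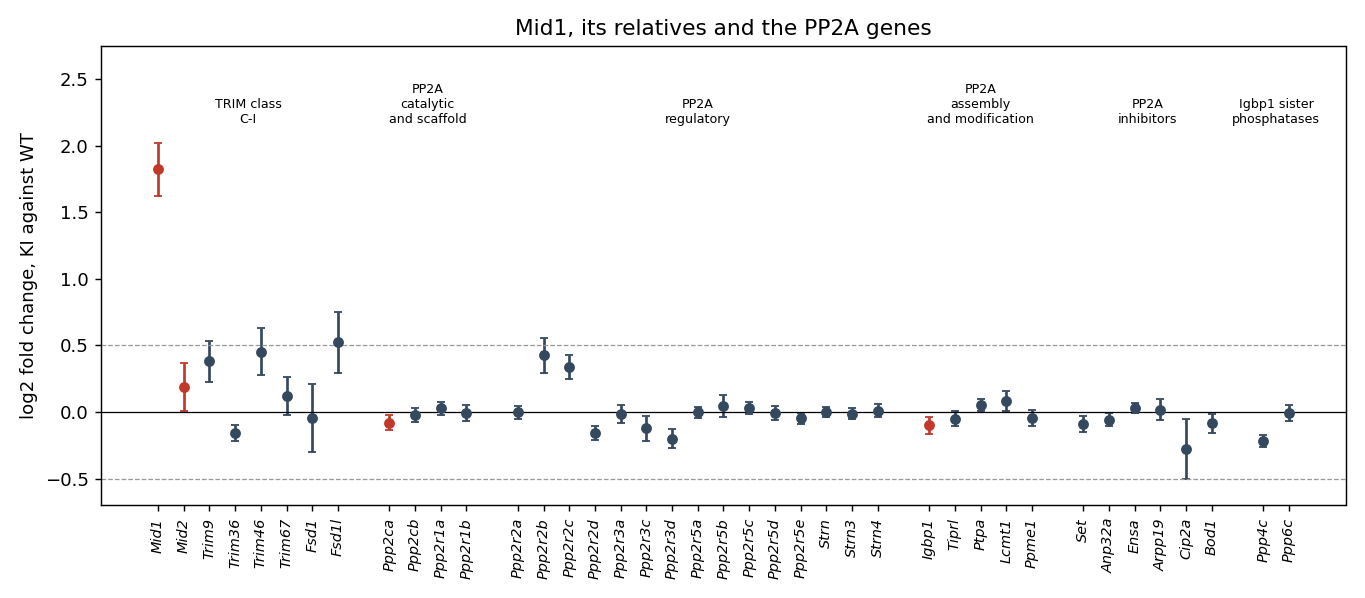
Log2 fold change of KI against WT over 16 libraries (vertical axis, edgeR, sex as a term) for the tested TRIM class C-I and PP2A genes, grouped by role along the horizontal axis. Error bars are ± 1 SE, dashed lines mark 0.5 either way, and members are in red; Mid1 at 1.82 stands apart, and the PP2A genes lie between -0.28 and 0.43.

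MID1 and PP2A are also known to act on mTORC1 signalling and on a small number of substrates and messenger RNAs. None of the 11 tested mTORC1 genes was called, where 8.64% of all tested genes were, and their median was -0.04. Rheb, the GTPase that switches mTORC1 on, was at -0.20 (FDR 0.0843), Tsc2, its brake, at 0.09 (FDR 0.323) and Eif4ebp1, a repressor of translation, at -0.14 (FDR 0.336). Of 8 genes listed as MID1 targets, 7 were tested, 6 were above 0 and none was called. At that share, the lack of a call in lists this short says little about these genes. The beta-secretase Bace1, which cuts APP, was at 0.32 (13.5 CPM in WT and 16.8 CPM in KI, FDR 0.0666) and tau, encoded by Mapt, at 0.37 (FDR 0.0787). With sex, none of the PP2A, mTORC1 or target genes was called, where 0.0604% of all tested genes were, so nothing is read from this.

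Over the 16 libraries the gene most like Mid1 was G530011O06Rik, annotated opposite to it, with a Pearson correlation of log2 CPM of 0.971. Next came Cdr1os (0.897), the noncoding host transcript of a neuronal circular RNA, then Ndn (0.879), Gng4 (0.846) and Neto2 (0.843). Mid1-ps1 stood at rank 24 (0.782), Mid2 at 0.365, Ppp2ca at -0.208 and Igbp1 at -0.453. These coefficients carry the group differences, since Cdr1os was at 129.2 ± 13.5 CPM in WT and 252.9 ± 24.5 CPM in KI, and Ndn at 1.83 ± 0.780 and 3.93 ± 0.519 CPM.

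With the mean of each of the 4 groups subtracted, G530011O06Rik remained near the top (0.878) and AI504432 stood just above it (0.879), followed by Cd209a (0.871), Mest (0.869) and Erbb3 (0.863). Cdr1os, Ndn, Gng4 and Neto2 were no longer among the first 5. Mid1-ps1 was then at -0.207, Mid2 at -0.0723, Igbp1 at -0.129 and Ppp2ca at -0.247. The correlations share libraries, depth and cell makeup, and are given as descriptions over n = 16.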

How the data were processed

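RNA of CD11b-enriched microglia from olfactory bulbs was sequenced in 16 libraries (Takara SMART-Seq Stranded, paired-end). The authors used STAR on a GRCm39 genome extended by human App, annotated by GENCODE M32, and deposited raw counts per gene, whole numbers with 1 column per library. Groups came from the labels. Whether each library is a separate animal is not in the labels, so p-values measure the spread between these libraries, which may be technical.

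A gene was kept if 50% or more of the libraries reached 5 counts (18227 of 57010, holding 99.86% of counts). Genotype and sex were tested with edgeR 4.0.16 (R 4.3.3, TMM, quasi-likelihood, additive model), and the interaction and the sex contrasts within each genotype from a fit of the 4 groups. A call needed an FDR (Benjamini-Hochberg) under 0.1 with a log2 change beyond 0.5 either way. The SE is the size of the log2 change over the square root of F. Log2 CPM carries a prior count of 2. Alternatives used limma 3.58.1, DESeq2 1.42.0, other scalings and filters, a neuron marker covariate, a replicate block and each library left out. On simulated data with 200 of 18227 genes changed, 91.5% (genotype), 93.5% (sex) and 66.5% (interaction) were recovered, and 5.18%, 4.59% and 8.9% of calls were false. These shares hold for the sizes of change put in, and recovery of smaller ones was not tested.

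Members and lists were chosen with earlier results of these data known, and the sex contrasts within genotype after seeing the values. Named genes are the members, list genes that were called, the 3 of smallest p per list, and the 5 most correlated with Mid1, before and after subtracting group means. Trim9, Fsd1l, Hccs, Gm15726, Gm21742, Aldoc, Gfap and the endothelial genes were named after their values were seen. Positions, exons and sequences came from GRCm39 with GENCODE M39, later than the M32 used for the counts. A gene of the target list that the naming rule picks is not reported here.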

Additional observations from a re-analysis of the deposited data

Results flagged for a closer look

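Each member was checked in each of the 4 groups of 4 libraries for a library standing far from the other 3, by the gap to its neighbour over the whole range of the group (Dixon's 95% criterion). Of 20 such groups 3 were marked, where chance gives about 1. Mid1-ps1 in WT females had a ratio of 1, since WT female 4 had 2 counts (0.171 CPM) and the other 3 libraries had 0. Igbp1 in WT males had a ratio of 0.901, WT male 2 standing at 106.1 CPM against 84.0-86.2 CPM. Igbp1 in KI males had a ratio of 0.946, KI male 3 standing at 87.1 CPM against 76.2-76.8 CPM. The log2 fold change of Igbp1 with genotype was -0.04 without WT male 2. Causes were not tested.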

How the results depend on the processing

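The log2 fold change of Mid1 with genotype was 1.77 to 2.03 over 10 alternatives and 1.70 to 1.91 with each library left out. Mid1-ps1 ranged from 3.58 to 3.98 and, in the 8 fits that left out a WT library, from 3.52 to 4.03; without a KI library it no longer passed the filter. Genes called with genotype numbered 1574, 355 with the neuron covariate and 1101 to 2187 with each library left out. Genes called with sex numbered 11 (1195 at an unadjusted p under 0.05), 57 with no filter on low counts and 5 to 9 with each library left out. The interaction count of 5 (1083 at an unadjusted p under 0.05) was 3 with upper quartile factors or filterByExpr, 81 with DESeq2, 1 with limma voom, 470 with no filter and 1 to 43 with each library left out. The interaction of Mid1 was called by DESeq2 at -1.16 (FDR 0.0411) and with no filter at -1.16 (FDR 9.15e-10), and lay between -1.37 and -0.97 with each library left out, never called. The count of sex calls within WT was 171, 277 with DESeq2, 794 with no filter and 13 to 342 with each library left out (13 without WT male 2, 342 without WT female 4); within KI it was 10, 50 with no filter and 3 to 8 with each library left out. The Mid1 sex difference within WT was called under all 7 other settings, at 0.98 to 1.07, and was 0.81 to 1.21 with each library left out, called in 12 of 16. Every fit that lost this call left out a WT library, and the KI libraries are not compared in this contrast. Causes were not tested.

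Whether replicate numbers pair the libraries was not settled. Deviations of 24 same-numbered pairs had a median correlation of 0.03 (-0.33 to 0.29), against -0.03 for the other pairs. Of the 16 libraries, 8 correlated best with their own number. With the replicate block, 3 interaction genes were called, the Mid1 interaction was -1.14 (FDR 0.377) and the other counts stayed within 1.5 times. Depth limits Mid1-ps1 most, at 0 to 22 counts per library.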
